A study of Homo sapiens with 4 samples.

Results

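The genes described are the D cyclins CCND1, CCND2 and CCND3, the kinases CDK4 and CDK6 that they activate, the E cyclins CCNE1 and CCNE2, their kinase CDK2, and FBXW7 and SKP2, which encode substrate receptors of ubiquitin ligases. They were chosen by name for their known roles, with earlier results of these data known, and they make up 10 of the 36359 genes in the deposited count table. The data are mRNA libraries of ACHN, a human cell line established from a renal cell carcinoma. Of the libraries, 2 came from cells given a control siRNA (siNC) and 2 from cells given siRNA against PRR11 (siPRR11). All 4 libraries come from the same line, the labels name no engineered knockout, and the time from transfection to harvest is not given in the sources used here. The study's methods list a pair of siPRR11 duplexes and the labels do not say which was transfected, so effects of PRR11 loss and of a duplex on other transcripts cannot be told apart. The labels do not say whether the libraries of a group came from separate cultures, so p-values measure only the spread between these libraries.

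D cyclins bind CDK4 and CDK6 in G1, the phase before DNA is copied, and these complexes begin the phosphorylation of the retinoblastoma protein RB. E cyclins then bind CDK2, which completes that phosphorylation and helps to start S phase. FBXW7 and SKP2 are F-box proteins, which bring substrates to the SCF ubiquitin ligase for destruction. FBXW7 binds phosphorylated cyclin E among others, and SKP2 binds the CDK inhibitor p27. All of these proteins are controlled to a large extent after translation, and the libraries measured mRNA only.

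Depth was high, at 59003839 to 92612749 counted reads per library, and 21630 genes had enough counts to be tested, among them all 10 described here. Levels are given as CPM, counts scaled to library size, with TMM factors, which compares libraries, or as RPKM, which divides by exonic length and compares genes. The exonic length is that of all annotated exons of a gene together, not of the transcripts present in these cells. Levels, shares and ratios between genes in RPKM are therefore approximate. The targeted gene was lower in the libraries labelled siPRR11. PRR11 stood at 41.3 and 40.4 CPM in siNC and at 15.3 and 14.0 CPM in siPRR11, which is 35.9% of control (edgeR quasi-likelihood test, adjusted p = 3.35e-06). The renal epithelial markers PAX8 (34.6 to 49.8 RPKM), KRT8, KRT18 and VIM were present in every library, PAX2 and LHX1 were lower, and CDH6 was nearly absent (at most 0.00523 RPKM). Among markers of other cells, the leukocyte list summed to 20.3 to 25.2 RPKM in siNC and 25.1 to 28.0 RPKM in siPRR11, nearly all of it CD68, while PTPRC, CD3E and CD79A were at most 0.0474 RPKM. The fibroblast list summed to 4.34 to 5.02 RPKM in siNC and 7.90 to 10.0 RPKM in siPRR11, nearly all of it COL1A1, with DCN and COL1A2 at or below 0.0216 RPKM. The endothelial list stayed at or below 0.0468 RPKM, and of the erythroid list HBA1 and HBA2 were at most 0.0288 RPKM.

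After transfection of siPRR11, CCND1 and CCND2 mRNA fell, CCND3 and CDK2 mRNA rose, and the other 6 genes did not pass the test. The 3 D cyclins thus did not move together. These 4 changes are not equally firm. CCND1 was called in every edgeR fit that used all 4 libraries, but not by DESeq2 (adjusted p = 0.295) or by limma on RPKM. For CDK2, counts of the overlapping gene RP11-973D8.4 equalled 92.0% to 93.1% of its own, so its level is uncertain. By the edgeR test, 4 of the 10 genes had an adjusted p under 0.05, where 16.7% of all tested genes did. In each direction there were 2, where 7.61% of all tested genes were called higher and 9.14% lower. For 5 of the 10 genes the groups did not overlap, a state found for 58.4% of all tested genes, so non-overlap alone carries little information with 2 libraries per group. The median log2 fold change of the 10 genes was 0.01, and that of all genes tested was 0.0022.

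**Figure D1:**
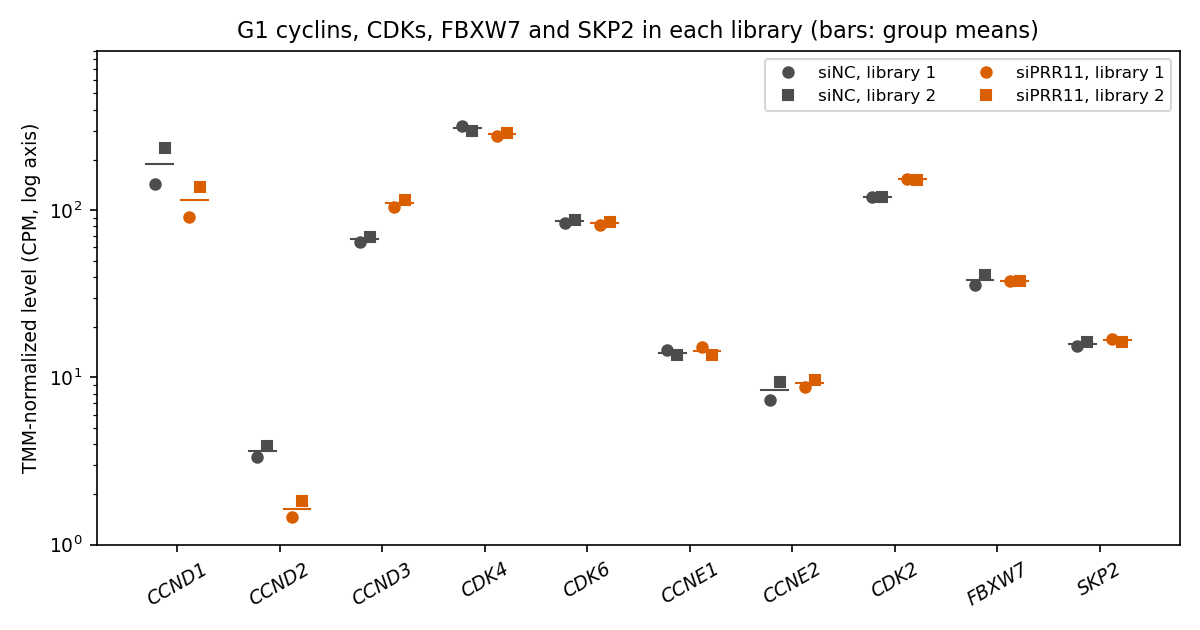
TMM-normalized level (CPM, log axis) of each gene in each library, with siNC in grey, siPRR11 in orange and a bar at the group mean of 2 libraries. CCND1 and CCND2 lie lower and CCND3 and CDK2 lie higher in both siPRR11 libraries, and heights are to be compared within a gene because CPM does not correct for gene length.

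CCND1 encodes cyclin D1, a D cyclin whose gene is amplified in some tumours, and lies at chr11:69641087-69654474 of GRCh38 on the plus strand. CCND1 mRNA stood at 142.8 and 237.1 CPM in siNC and at 90.9 and 138.1 CPM in siPRR11. The groups did not overlap, but the higher siPRR11 library lay just under the lower siNC library, and CCND1 had the widest spread of the 10 genes. The means were 189.9 ± 66.7 CPM (SD, n = 2) in siNC and 114.5 ± 33.3 CPM (SD, n = 2) in siPRR11. The log2 fold change was -0.73 (SE 0.21, 95% interval -1.18 to -0.27), or 60.3% of control, with an adjusted p of 0.0326 in the edgeR quasi-likelihood test. The size depended on the libraries used: without siNC library 2 the log2 fold change was -0.32, whereas without siNC library 1 it was -1.05. Without siPRR11 library 1 it was -0.46, and without siPRR11 library 2 it was -1.06. CCND1 was higher in library 2 of both groups. With a block for the replicate number the log2 fold change was -0.72 (adjusted p = 3.29e-27, edgeR). The labels do not tie equal replicate numbers together, so that fit is only an alternative. Without the block, the exact test of edgeR gave an adjusted p of 0.0057. DESeq2 gave the same size of change with an adjusted p of 0.295. The direction was therefore the same in every fit, and the call was not.

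Reads in bases that CCND1 shares with another gene bear on this value. The exons of ORAOV1 on the other strand overlap 10.3% of the exonic bases of CCND1, and the counts of ORAOV1 equalled between 19.3% and 28.8% of those of CCND1. ORAOV1 itself stood at 32.5 and 45.7 CPM in siNC and at 26.2 and 33.8 CPM in siPRR11, highest in siNC library 2 as CCND1 was. With all ORAOV1 counts taken away, the log2 fold change of CCND1 was -0.84 (adjusted p = 0.0269, edgeR), so the fall did not depend on them.

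CCND2 encodes cyclin D2 and lies at chr12:4273772-4305350 on the plus strand. It was the least abundant of the 10 genes, at 274 and 224 counts in siNC and 138 and 156 counts in siPRR11. These counts correspond to 3.35 and 3.86 CPM against 1.46 and 1.82 CPM, with no overlap between the groups. CCND2 fell to 45.6% of control (log2 fold change -1.13, SE 0.19, adjusted p = 0.00175, edgeR), and the value stayed between -1.30 and -0.98 when any single library was left out.

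CCND3 encodes cyclin D3 and lies at chr6:41934933-42050357 on the minus strand. CCND3 mRNA stood at 64.9 and 69.5 CPM in siNC and at 105.1 and 115.4 CPM in siPRR11. The gap between the groups was several times the difference within either group, with means of 67.2 ± 3.26 CPM (SD, n = 2) and 110.3 ± 7.25 CPM (SD, n = 2). It rose 1.64-fold (log2 fold change 0.72, SE 0.08, 95% interval 0.54 to 0.89, adjusted p = 0.00018, edgeR). CCND3 shares almost no counts with an overlapping gene (at most 0.0189%), and without any single library the log2 fold change was 0.65 to 0.78.

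**Figure D2:**
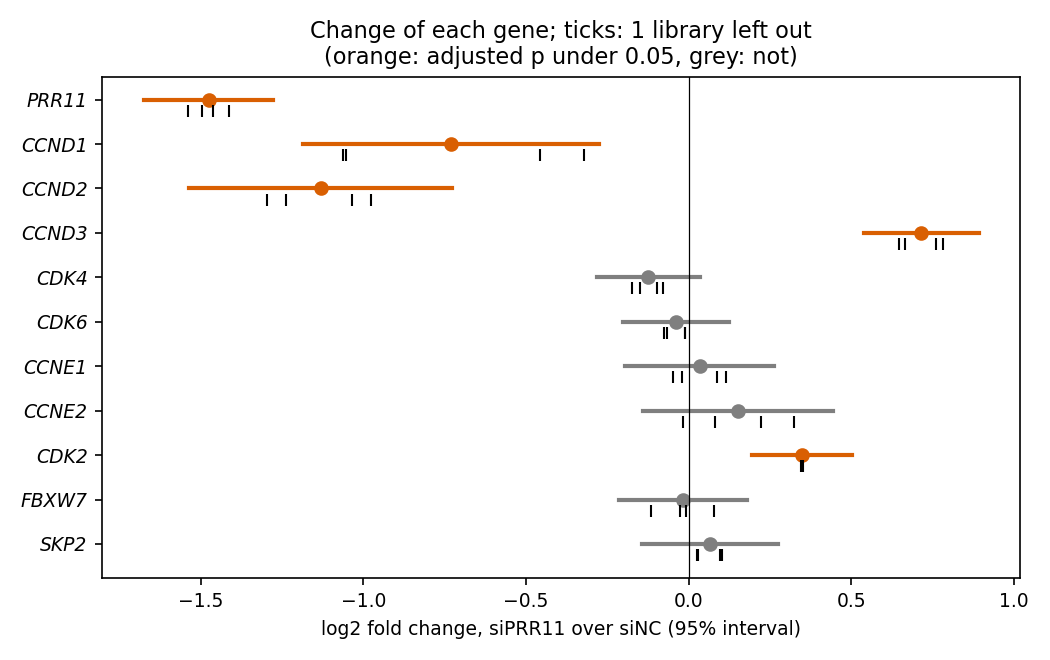
Log2 fold change of PRR11 and the 10 genes, siPRR11 over siNC, with the 95% interval as a line, orange where the adjusted p is under 0.05, and black ticks for the values with 1 library left out. The ticks of CCND1 spread from -1.06 to -0.32, those of CDK2 lie between 0.34 and 0.35, and those of CCNE1, CCNE2 and FBXW7 fall on both sides of 0.

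Per length, the D cyclin mRNA of ACHN cells was mostly CCND1 and CCND3. The CCND1 values may include reads shared with ORAOV1, whose counts equalled 19.3% to 28.8% of those of CCND1. The level, shares and ratios of CCND1 given here may therefore be too high. In RPKM, CCND1 stood at 29.1 and 48.2 in siNC and 19.2 and 29.0 in siPRR11, CCND3 at 11.0 and 11.8 against 18.4 and 20.2, and CCND2 never above 0.53. CCND3 took 27.1% and 19.4% of the summed D cyclin RPKM in siNC, and 48.8% and 40.8% in siPRR11. The share of CCND1 was 71.7% and 79.7% in siNC and 50.7% and 58.7% in siPRR11. Neither share overlapped between the groups. The sum itself did overlap, at 40.5 and 60.5 RPKM in siNC and 37.8 and 49.4 RPKM in siPRR11, and neither pattern is more than a description with 2 libraries per group. The ratio of CCND1 to CCND3 RPKM, which no scaling between libraries can change, was 2.64 and 4.10 in siNC against 1.04 and 1.44 in siPRR11. The mean log2 ratio was lower by 1.43 in siPRR11 (0.371-fold, two-sided exact permutation p = 0.333). With 2 libraries against 2 that is the smallest p this test can give, so the ratio cannot pass 0.05 by this test. The ratio of CCND1 to CCND2 was 63.1 and 90.9 in siNC and 92.0 and 112.2 in siPRR11 (exact permutation p = 0.333).

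**Figure D3:**
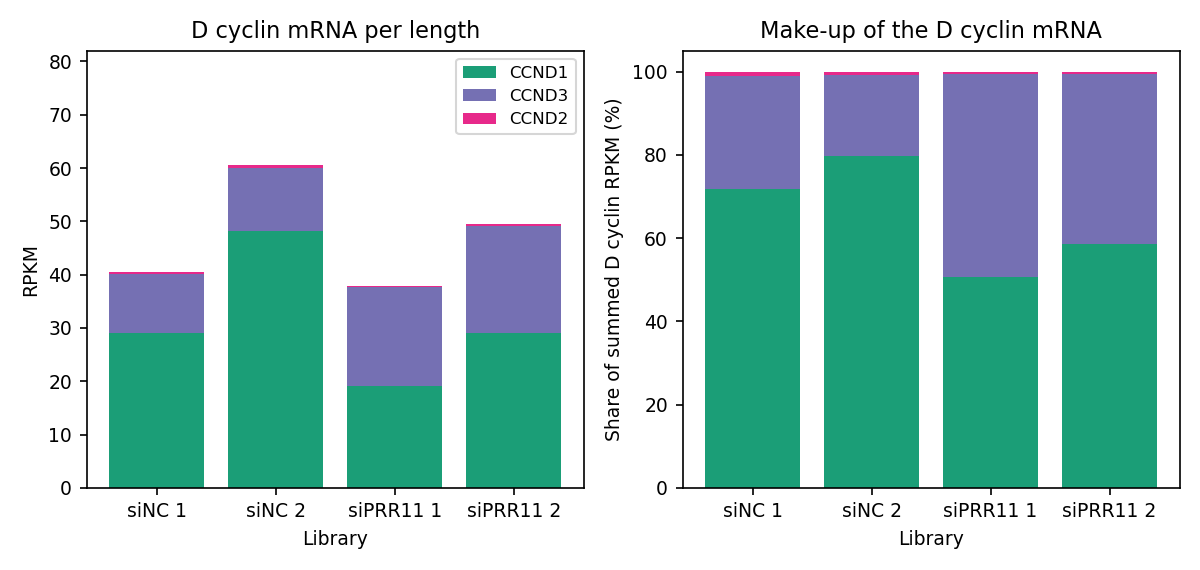
RPKM of the 3 D cyclins stacked in each library (left) and the share of each in their sum as a percentage (right). CCND3 makes up 19.4% to 27.1% of the sum in siNC and 40.8% to 48.8% in siPRR11, while the summed heights overlap between the groups. The bars use counts as deposited, in which CCND1 may include reads shared with ORAOV1.

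The kinases of the D cyclins passed no test. CDK4 lies at chr12:57747727-57756013 on the minus strand and was the most abundant of the 10 genes per length. It stood at 319.2 and 299.6 CPM in siNC and at 279.0 and 289.0 CPM in siPRR11. Both siPRR11 values were below both siNC values, but the difference was small, at 91.8% of control with a 95% interval of -0.28 to 0.03 on the log2 scale (adjusted p = 0.278, edgeR). The exons of TSPAN31 overlap 43.2% of the exonic bases of CDK4, and without those counts the log2 fold change was -0.11.

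CDK6, at chr7:92604921-92836594 on the minus strand, stood at 84.1 and 88.0 CPM in siNC and 82.1 and 85.3 CPM in siPRR11. These ranges overlapped, and the interval of the log2 fold change ran from -0.20 to 0.12 (adjusted p = 0.768, edgeR). CDK4 exceeded CDK6 by a factor of 13.1 to 14.7 per length in the 4 libraries. Summed CDK4 and CDK6 RPKM was 2.61 and 1.65 times the summed D cyclin RPKM in siNC and 2.55 and 2.01 times in siPRR11, again with overlap.

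The E cyclins also passed no test. CCNE1, at chr19:29811898-29824308 on the plus strand, stood at 14.6 and 13.5 CPM in siNC and at 15.2 and 13.6 CPM in siPRR11. The log2 interval of CCNE1 was -0.19 to 0.26 (adjusted p = 0.866, edgeR), and the groups overlapped. CCNE2, on the minus strand of chromosome 8, stood at 7.37 and 9.35 CPM in siNC and at 8.80 and 9.71 CPM in siPRR11. The groups overlapped and the interval was -0.14 to 0.44 (adjusted p = 0.49, edgeR). The exons of INTS8 cover 37.0% of the exonic bases of CCNE2 and INTS8 has more counts than CCNE2, so how much of the CCNE2 value comes from CCNE2 cannot be told from these counts. CCNE1 took 77.4% and 71.4% of the summed E cyclin RPKM in siNC against 74.9% and 70.7% in siPRR11. These shares overlapped, and the log2 ratio of CCNE1 to CCNE2 differed by -0.12 (exact permutation p = 0.667).

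CDK2, at chr12:55966769-55972784 on the plus strand, stood at 119.9 and 120.3 CPM in siNC and at 153.4 and 152.7 CPM in siPRR11. Libraries of a group were almost equal and the groups were far apart compared with that spread. CDK2 rose 1.27-fold (log2 fold change 0.35, SE 0.07, 95% interval 0.20 to 0.50, adjusted p = 0.0058, edgeR). Most of the reads behind this value, however, lie in a small part of the gene. RP11-973D8.4, a gene of 565 exonic bases, overlaps 14.5% of the exonic bases of CDK2, and its counts equalled 92.0% to 93.1% of those of CDK2. RP11-973D8.4 on its own stood at 111.7 and 111.7 CPM in siNC and 141.4 and 140.5 CPM in siPRR11. The counts table does not say which transcript these reads came from.

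Outside RP11-973D8.4, siNC had 673 and 500 CDK2 counts against 1125 and 1042 after siPRR11, or 8.23 and 8.62 CPM against 11.9 and 12.2 CPM. Both siPRR11 libraries were higher on these reads too. With the counts of PMEL, which overlaps 2.29% of the bases, also taken away, the log2 fold change of CDK2 was 0.45 (adjusted p = 0.0367, edgeR). The direction of the CDK2 change therefore held on either set of reads, while the CDK2 level did not. Values that use that level, such as the share of CDK2 in the summed RPKM of the 3 kinases (22.2% and 23.3% in siNC, 29.4% and 28.5% in siPRR11) and the ratio of CDK2 to the E cyclins (4.16 and 4.15 against 4.94 and 5.20), carry the same limit.

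FBXW7, at chr4:152321259-152536101 on the minus strand, stood at 35.7 and 40.9 CPM in siNC and at 37.6 and 38.0 CPM in siPRR11. The siPRR11 values lay inside the siNC range, and the interval of the log2 fold change was -0.21 to 0.18 (adjusted p = 0.928, edgeR). SKP2, at chr5:36151989-36184319 on the plus strand, stood at 15.5 and 16.3 CPM in siNC and at 17.1 and 16.2 CPM in siPRR11. SKP2 overlapped as well, with an interval of -0.14 to 0.28 (adjusted p = 0.70, edgeR). Per length the receptors were close to each other, with an SKP2 to FBXW7 ratio of 1.17 and 1.07 in siNC and 1.22 and 1.14 in siPRR11 (exact permutation p = 0.667).

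Ordered by RPKM in siNC, CDK4 came first (92.9 to 99.1), followed by CCND1 and CDK2, whose ranges overlapped (29.1 to 48.2 and 30.3 to 30.4). CCND3, CDK6, CCNE1, SKP2, FBXW7, CCNE2 and CCND2 followed in that order without overlap between neighbours. In siPRR11, CDK2 (39.8 to 40.1 RPKM) lay above CCND1 (19.2 to 29.0 RPKM), and CCND1 overlapped CCND3 (18.4 to 20.2 RPKM). The order from CDK6 downwards was the same in both groups. The places of CDK2 and CCNE2 hold only for counts as deposited, which include reads shared with RP11-973D8.4 and INTS8. CCND1 counts may also include reads shared with ORAOV1, so the place of CCND1 beside CDK2 and CCND3 has the same limit.

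Windows of 300 bases around annotated transcript starts (250 bases before to 50 after, RefSeq, GRCh38.p14) were at hand for 6 of the 10 genes, CCND3, CDK4, CDK6, CCNE1, FBXW7 and SKP2, with 12 windows in all. The windows were searched on both strands for an E2F site (TTTCCCGC, TTTCGCGC, TTTGCCGC or TTTGGCGC), a GC box (GGGCGG), an E-box (CACGTG), a CRE (TGACGTCA), an AP-1 site (TGACTCA) and a CCAAT box (CCAAT). None of the 12 windows held the E2F, CRE or AP-1 letters, which occur in 3.31%, 1.85% and 4.95% of all 35116 windows. At shares this low, 12 windows are too few to read anything from that absence, and sites spelled otherwise were not searched for. GC boxes were common, as they are in 44.95% of all windows, with 7 in the CCNE1 window and 5 in a CCND3 window. CACGTG, the E-box letters bound by MYC and related factors, occurred 3 times in the CDK4 window, once after the start in a CDK6 window and in 7.26% of all windows, and CCAAT occurs in 34.61% of all windows. Shown are the stretches upstream of a start, free of exons, for a gene that rose (CCND3), a cyclin that passed no test (CCNE1) and a kinase that passed no test (CDK6), at chr6:41941849-41942058 (minus strand), chr19:29811741-29811897 (plus strand) and chr7:92836595-92836823 (minus strand), with GC boxes and CCAAT boxes in capitals.
CCND3: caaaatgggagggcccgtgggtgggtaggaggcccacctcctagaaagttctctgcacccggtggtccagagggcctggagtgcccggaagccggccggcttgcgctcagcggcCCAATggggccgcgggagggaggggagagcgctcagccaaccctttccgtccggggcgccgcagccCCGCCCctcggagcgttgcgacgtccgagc
CCNE1: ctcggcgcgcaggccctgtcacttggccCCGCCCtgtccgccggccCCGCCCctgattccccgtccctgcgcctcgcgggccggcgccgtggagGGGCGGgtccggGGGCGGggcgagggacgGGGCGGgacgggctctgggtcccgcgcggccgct
CDK6: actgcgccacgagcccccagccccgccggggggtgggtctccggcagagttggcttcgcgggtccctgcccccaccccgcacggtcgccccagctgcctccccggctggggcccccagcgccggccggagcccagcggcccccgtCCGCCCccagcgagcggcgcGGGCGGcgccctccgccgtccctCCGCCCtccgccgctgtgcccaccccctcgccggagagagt

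Genes around the G1 cyclins were described with 9 lists of known partners, 79 genes in all, of which 78 were tested. Of these, 28 had an adjusted p under 0.05 (edgeR), 19 higher and 9 lower in siPRR11, where 16.7% of all tested genes were called, 7.61% higher and 9.14% lower. The median log2 fold change of the 78 was 0.09. The count of each list is to be read against those shares of all tested genes. Counts at an unadjusted p under 0.05 (edgeR) have no such share beside them, because it was not counted over all tested genes. They can therefore not be called many or few. In the lists where they are not printed below, they were 5 in other ligase genes, 5 in CDK activation and 4 in E2F and DP factors. They were 5 in S and M phase cyclins and 7 in genes of FBXW7 substrates. Some genes stand in more than 1 list, and reads of overlapping genes count for both. In bulk RNA, a change in the share of cells in a phase and a change in mRNA per cell cannot be told apart, which touches every list that follows.

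CDK inhibitors and RB pocket proteins comprise the proteins that hold the G1 kinases back and RB with its relatives. Of 10 tested, 3 rose and none fell by the edgeR test, where 7.61% of all tested genes rose and 9.14% fell, and the median log2 fold change was 0.28. At an unadjusted p under 0.05 there were 6, rises and falls counted together. CDKN1A, which encodes p21, an inhibitor of CDK2 that also binds CDK4 complexes, stood at 45.5 and 44.2 CPM in siNC and at 97.5 and 90.5 CPM in siPRR11, a 2.10-fold rise. CDKN2C, which encodes the CDK4 and CDK6 inhibitor p18, rose 1.45-fold and RBL1, which encodes p107, rose 1.27-fold. Of 13 alternative fits, 5 did not call RBL1. RBL1 lost its call (adjusted p 0.0602 to 0.216) without any library except siNC library 2. CDKN1B, which encodes the SKP2 substrate p27, stood at 231.6 and 209.9 CPM in siNC and at 197.5 and 186.0 CPM in siPRR11 (log2 fold change -0.20, adjusted p = 0.0977, edgeR). Without siNC library 2 the CDKN1B value was -0.28 with an adjusted p of 0.0142, and 5 genes of the list passed.

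Of 10 E2F factors and DP partners, the transcription factors released or recruited by RB family proteins, 3 rose and 1 fell, with a median log2 fold change of 0.04. E2F7 rose 1.65-fold from 20.1 and 21.4 CPM to 35.5 and 32.8 CPM, and E2F8 rose 1.41-fold; both encode repressors of the family. E2F1, an activator, rose 1.46-fold from 4.70 and 5.98 CPM to 7.07 and 8.44 CPM. E2F4, a repressor that acts with the pocket proteins, fell from 88.2 and 91.1 CPM to 67.0 and 68.1 CPM. Without siPRR11 library 2, E2F1 (adjusted p = 0.179, edgeR) and E2F8 (adjusted p = 0.0694, edgeR) lost their calls and 2 of the 10 passed. E2F1 also lost its call without siNC library 1 (adjusted p = 0.0882, edgeR).

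Of 7 S and M phase cyclins and CDK1, 4 rose and 1 fell, with a median log2 fold change of 0.32. CCNF, which encodes an F-box protein of the cyclin family, rose 1.33-fold, CCNA2, the S phase partner of CDK2, rose 1.28-fold and CDK1, the mitotic kinase, rose 1.27-fold. CDK1 stood at 82.8 and 82.6 CPM in siNC and at 105.6 and 104.9 CPM in siPRR11. The gene that fell was CCNA1, which lay below the level set for naming genes and is named after its values were seen, with 54 counts in each siNC library and 34 and 24 counts in siPRR11. Without siPRR11 library 1, 2 of the 7 passed, and CCNF (adjusted p = 0.208, edgeR), CDK1 (adjusted p = 0.0533, edgeR) and CCNB2 (adjusted p = 0.16, edgeR), a mitotic cyclin named here for that loss, were no longer called. Without siPRR11 library 2, 2 of the 7 also passed, and CCNA2 (adjusted p = 0.122, edgeR), CCNB2 (adjusted p = 0.118, edgeR) and CCNA1 (adjusted p = 0.12, edgeR) were no longer called. CCNA1 also lost its call without siNC library 2 (adjusted p = 0.112, edgeR) and in both limma fits (adjusted p = 0.0682 and 0.0621). EXOSC9, on the other strand, overlaps 9.08% of the exonic bases of CCNA2 and has more counts than CCNA2 in at least 1 library, so the shared reads cannot be bounded.

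Of 13 genes of the SCF ligase core and its cofactors, 1 rose and none fell (edgeR), a share near the 7.61% of all tested genes that rose, with a median log2 fold change of 0.04 and 5 at an unadjusted p under 0.05. The gene that rose was CKS1B, whose product helps SKP2 to bind p27. CKS1B stood at 26.7 and 26.6 CPM in siNC and at 42.1 and 36.3 CPM in siPRR11, a 1.47-fold rise (adjusted p = 0.0021, edgeR). SKP1, the adaptor that holds F-box proteins, did not pass the test (log2 fold change 0.03, adjusted p = 0.818, edgeR). CTD-2410N18.5, on the same strand, overlaps 1.34% of the exonic bases of SKP1. It has at least as many counts as SKP1 in at least 1 library, so the shared reads cannot be bounded. Without siNC library 1, 2 genes of the list passed. Of the other FBXW family F-box genes, 8 of 9 were tested and 0 passed by edgeR's quasi-likelihood test, with 1 at an unadjusted p under 0.05 and a median log2 fold change of -0.11. The exact test of edgeR called 1, DESeq2 called 0, and the quasi-likelihood test called 1 without siNC library 1.

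Of 9 other ligase genes and cofactors for D and E cyclins, 1 rose and 2 fell, beside 7.61% and 9.14% of all tested genes, with a median log2 fold change of 0.03. FBXO4, which encodes an F-box protein described as a receptor for cyclin D1, fell from 13.9 and 15.9 CPM to 9.03 and 9.72 CPM (log2 fold change -0.67, adjusted p = 0.00185, edgeR). FBXO31, for which the same has been described, fell from 19.5 and 21.9 CPM to 15.2 and 15.7 CPM. CUL4B, a scaffold of another ligase family, rose 1.39-fold. FBXO31 lost its call without siPRR11 library 1 (adjusted p = 0.0988, edgeR), which left 1 fall, and 2 genes of the list rose without siNC library 1. Of all 13 alternative fits, 3 did not call FBXO31. MAP1LC3B has exons over 2.17% of the bases of FBXO31 and more counts than FBXO31, so reads of FBXO31 cannot be bounded.

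Of 7 genes that activate CDKs or hold them inactive by phosphorylation, including chaperones of CDK4, 1 rose and 3 fell, with a median log2 fold change of -0.06. MNAT1, a subunit of the CDK-activating kinase, fell from 36.6 and 32.6 CPM to 22.7 and 25.6 CPM. CDC37 and HSP90AB1, which encode the chaperones that fold CDK4, fell to 73.9% and 73.3% of control. Of 13 alternative fits, 2 did not call HSP90AB1, and CDC37 and MNAT1 each lost their call in 1. HSP90AB1 stood at 3983 and 3838 CPM in siNC and at 2845 and 2889 CPM in siPRR11. WEE1, the kinase that inhibits CDK1 and CDK2, rose 1.31-fold and lost its call without siPRR11 library 1 (adjusted p = 0.134, edgeR) or siPRR11 library 2 (adjusted p = 0.0672, edgeR), which left 0 rises. Without siNC library 2 there were 2 rises.

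Genes of known FBXW7 substrates other than the E cyclins numbered 10, of which 4 rose and 2 fell, with a median log2 fold change of 0.14. MYC, whose protein is a transcription factor that FBXW7 targets, fell from 73.5 and 81.0 CPM to 39.0 and 44.5 CPM, which is 54.1% of control (adjusted p = 9.23e-05, edgeR). NFE2L1 fell to 76.5% of control. NOTCH1, the receptor, rose 1.36-fold, DEK rose 1.36-fold and AURKA, a mitotic kinase, rose 1.26-fold. AURKA lost its call without siPRR11 library 1 (adjusted p = 0.277, edgeR). Of 8 genes of known SKP2 substrates, 3 rose and none fell (edgeR), with 5 at an unadjusted p under 0.05 and a median log2 fold change of 0.39. These were CDKN1A, which also stands among the CDK inhibitors, and the replication licensing genes CDT1 and ORC1. CDT1 rose 1.71-fold, to 23.8 and 29.5 CPM, from a mean of 15.6 ± 2.01 CPM (SD, n = 2) in siNC, and ORC1 rose 1.68-fold from 6.94 and 7.43 CPM to 11.7 and 12.5 CPM. FBXW7 and SKP2 act on these substrates as proteins, and protein was not measured in these files.

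**Figure D4:**
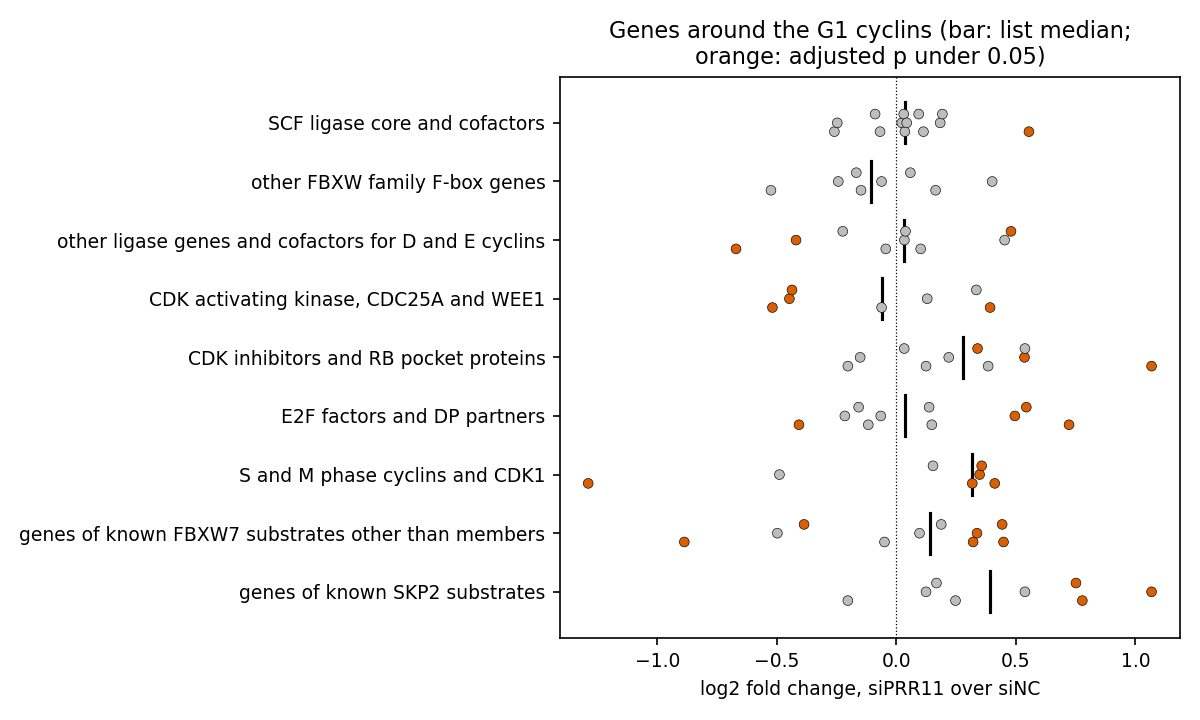
Log2 fold change, siPRR11 over siNC, of each tested gene of the 9 lists, orange where the adjusted p is under 0.05 and grey where it is not, with a black bar at the median of the list. Medians run from -0.11 in the other FBXW genes to 0.39 in the genes of SKP2 substrates, and the lists of CDK inhibitors and of SKP2 substrates share genes.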

How the data were processed

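Per the labels and the study's methods, total RNA of ACHN cells went into a stranded mRNA library kit and was sequenced on a DNBSEQ-T7 instrument, reads were trimmed (Trimmomatic 0.36 per the submitters' processing notes), aligned to GRCh38 with STAR and counted per gene with featureCounts (Subread 1.5.1). The authors deposited raw counts per gene, with exons and exonic length, and RPKM values computed from them, which equal count over length over column total to within 3.08e-06% for 15916 genes. The annotation release and the counting options are not given in the sources used here. Among genes whose exonic bases all lie within exons of another gene with at least 100 counts, 98.95% of 474 on the other strand and 98.06% of 310 on the same strand had counts, and none exceeded its host. The counts thus behave as though a read went to every gene it overlaps on either strand.

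Counts were tested with the quasi-likelihood test of edgeR 4.0.16 in R 4.3.3 (TMM, filterByExpr, condition as the only term, two-sided), over 21630 genes with Benjamini-Hochberg adjustment and a threshold of 0.05. The other 14729 genes had too few counts. In simulated data for this comparison, over 21630 genes, it recovered 67 of 100 genes changed by 0.5 and 98 of 100 changed by 1 on the log2 scale, with 14 false calls. Ratios of RPKM between genes were compared by exact permutation over libraries. The alternatives were RLE and upper quartile factors, the exact test of edgeR, DESeq2 1.42.0, a looser filter (none) and a stricter one (10 counts in each library), a block for the replicate number, limma 3.58.1 on log2(RPKM + 1) and log2(RPKM + 0.1), and each library left out in turn. Removing the counts of overlapping genes was added after the data were seen. The 10 genes and the 9 lists of partners (SCF core, other FBXW genes, other ligases of D and E cyclins, CDK activation, CDK inhibitors and RB pocket proteins, E2F and DP factors, S and M phase cyclins, genes of FBXW7 substrates and genes of SKP2 substrates) were chosen with earlier results of these data known. From each list the text names at most the 3 largest rises and 3 largest falls with an adjusted p under 0.05 and an average log2 CPM of at least 1. Also named are binding partners of the 10 genes, genes whose exons overlap a named gene, and CCNA1 and CCNB2, for reasons given with them. Libraries of a group differed beyond counting error (chi-square per degree of freedom 19.0 in siNC and 12.9 in siPRR11). The labels do not tie equal replicate numbers together, and with 2 numbers a pairing was not established.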

Additional observations from a re-analysis of the deposited data

How the results depend on the processing

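The number of the 10 genes called lower was 2 as reported and 1 with DESeq2, with limma on log2(RPKM + 1) and on log2(RPKM + 0.1), and 1 to 2 with a library left out, the lowest without siNC library 2; in each case CCND1 lost its call (adjusted p 0.295, 0.212, 0.193 and 0.0546). CCND2, CCND3 and CDK2 kept direction and call in all 14 alternatives, although CCND2 was -0.28 on the log2(RPKM + 1) scale, which understates low genes. Genes without a call changed sign: CDK6 was 0.0064 and 0.0072 and FBXW7 0.025 and 0.032 in the limma fits, FBXW7 ranged from -0.12 to 0.08 with a library left out, CCNE1 from -0.05 to 0.11, CCNE2 from -0.02 to 0.32 and the log2 ratio of CCNE1 to CCNE2 from -0.35 to 0.10. Without siNC library 2, FBXW7 was 0.079 and CCNE1 -0.022, without siPRR11 library 1 CCNE1 was -0.049, without siNC library 1 CCNE2 was -0.018 and that ratio 0.104, and without siPRR11 library 2 the ratio was 0.031.

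With the replicate block, 4 of the 10 genes were called (2 higher, 2 lower), as without it, but 6988 of all genes against 3622. Deviations of same-numbered libraries correlated at 0.16 over all tested genes and at 0.48 over the 14193 whose mean log2 CPM reached 1, and the labels name no shared batch. In the lists, the block gave 5 calls in the SCF core, 1 in other FBXW genes, 5 in other ligase genes, 6 in CDK inhibitors and RB proteins and 5 in genes of SKP2 substrates. DESeq2, the exact test and a minimum of 10 counts gave 2 in the SCF core, and the exact test 1 in other FBXW genes. The limma fits gave 0 and 2 in CDK activation and 3 and 3 in S and M phase cyclins. With a library left out, calls ranged from 1 to 2 in the SCF core, 0 to 1 in other FBXW genes, 2 to 5 in CDK inhibitors, 2 to 4 in E2F factors and 2 to 5 in S and M phase cyclins. The limma fits called 1775 and 1878 of all genes, 61.5% and 61.3% of them higher against 45.4% as reported. The cause of these differences was not tested. Fits without a library leave 1 library in a group, whose spread is taken from the other group.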
